A study of Homo sapiens with 12 samples.

Results

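The genes described here are 38 genes of the endoplasmic reticulum (ER): the chaperones that fold secreted and membrane proteins, the sensors of the unfolded protein response, and the machinery that moves proteins into, out of or back from the ER. They were chosen by symbol, and all 38 were found among the 63677 genes listed. Of these, 37 had enough reads to be tested, out of 17730 tested genes. The remaining one, DERL3, which encodes a derlin of ER-associated degradation, had 0 reads in all 12 libraries.

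RNA was sequenced from HCT116, an epithelial cell line from a human colon carcinoma, after transfection with short interfering RNAs (siRNAs) against NFYA. Cells were plated at 25000 per well and collected 72 h after transfection, and each siRNA was used at 62.5 nM. The groups were siTotal1 and siTotal2 (a pair of sequences that target every NFYA transcript), siLong1 and siLong2 (a pair of sequences that target the NFYA transcripts with the long 3′ untranslated region), siControl (an siRNA with no intended target) and mock (transfection reagent with no siRNA). Each of the 6 groups had 2 libraries, which the submitters describe as biological duplicates of 1 cell line. All groups therefore share the transfection procedure, and only mock cells received no siRNA. "siTotal" below is the mean of siTotal1 and siTotal2, and "siLong" the mean of siLong1 and siLong2.

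Proteins that enter the ER are bound by chaperones such as BiP, the product of HSPA5, and joined by disulfide bonds. When unfolded protein builds up, the sensors IRE1, PERK and ATF6 are released from BiP and start the unfolded protein response, in which ATF6 and spliced XBP1 raise the transcription of chaperone and degradation genes. Many of those genes carry an ER stress element in the promoter, in which a CCAAT box bound by NF-Y stands at a fixed distance from a site for ATF6. NFYA encodes the subunit of NF-Y that contacts the CCAAT box, together with the products of NFYB and NFYC.

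Libraries held between 35604197 and 49746637 reads. NFYA, the targeted gene, had 47.9 and 46.8 depth-scaled counts (CPM, counts scaled to library size) in siTotal1, 46.0 and 46.2 CPM in siTotal2, 47.7 and 46.5 CPM in siLong1, 69.7 and 70.2 CPM in the libraries labelled siLong2, 57.4 and 57.5 CPM in siControl, and 55.2 and 59.2 CPM in mock. NFYA was thus lower than in all control libraries in siTotal1, siTotal2 and siLong1, and higher than in all of them in the libraries labelled siLong2. The log2 difference from siControl was -0.28, -0.32, -0.29 and 0.28 for siTotal1, siTotal2, siLong1 and siLong2 in that order, and each was called. These gene counts do not separate long from short NFYA transcripts, so they do not measure the intended target of the siLong siRNAs alone. The direction in siLong2 goes against a knockdown; siLong2 below means the libraries so labelled, and every siLong value draws on them. NFYB rose in siTotal against siControl by 0.77 (log2) and NFYC by 0.72. All 8 epithelial markers were expressed, with summed levels of 5710 CPM in siLong1, 5140 to 5340 CPM in the libraries labelled siLong2, 3690 to 3920 CPM in siTotal1, 3410 to 3550 CPM in siTotal2, 3550 to 3620 CPM in siControl and 3580 to 3790 CPM in mock. The part of this higher epithelial level in the siLong results was not tested. The 7 fibroblast markers summed to 981 to 2315 reads per library, mostly from COL1A1, without which they summed to 7 to 451 reads, most in the first mock library and in siTotal2 (113 and 214 reads). The 4 neural markers, 2 of them tested, summed to 81.5 to 86.5 CPM in siTotal2, 59.9 to 61.6 CPM in siTotal1, 70.2 to 76.6 CPM in siLong and 62.1 to 71.6 CPM in the controls; 1 was called higher in siTotal and 2 in siLong against siControl, and 0 in siTotal and 1 in siLong against mock. The part of these levels in the results was not tested. None of the fibroblast markers was called in siTotal or siLong against either control, and the 5 blood markers summed to 2 to 16 reads. None of the 5 markers of ER-rich secretory cells had enough reads to be tested, with 5 to 15 summed reads per library.

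The promoters of the set show which members carry an ER stress element. RefSeq promoter windows on GRCh38.p14, running from 250 bases before the start to 50 after it, were found for 34 members. An ERSE (CCAAT, then 9 bases of any kind, then CCACG, on either strand) was present in 7 of these 34 (20.6%), against 27 of 35116 promoters of the same length in all (0.0769%). An ERSE-II (ATTGG, any 1 base, then CCACG, on either strand) was present in a further 3 members (8.82%), against 19 promoters in all (0.0541%). A CCAAT box, within such an element or outside it, was present in 27 members (79.4%), against 12155 promoters (34.6%), and every ERSE or ERSE-II contains one on one of its strands. Because the set was drawn up around genes known for these elements, their excess is a property of the choice and not a result. The matches are shown because the members that hold them are compared with the others below. Capitals mark the fixed letters of the motif and lower case the bases between them, each read 5′ to 3′ on the strand named.
HSPA5 (ERSE, chr9:125241391-125241409, minus strand): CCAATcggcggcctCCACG
HSP90B1 (ERSE, chr12:103930216-103930234, plus strand): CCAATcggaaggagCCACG
HSP90B1 (ERSE, chr12:103930321-103930339, minus strand): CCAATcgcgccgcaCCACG
CALR (ERSE, chr19:12938384-12938402, minus strand): CCAATgatggtcgaCCACG
CANX (ERSE, chr5:179698778-179698796, plus strand): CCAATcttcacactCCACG
CRELD2 (ERSE, chr22:49918554-49918572, minus strand): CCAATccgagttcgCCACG
XBP1 (ERSE, chr22:28800603-28800621, minus strand): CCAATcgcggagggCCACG
ERO1B (ERSE, chr1:236282183-236282201, plus strand): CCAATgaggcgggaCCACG
HYOU1 (ERSE-II, chr11:119057274-119057284, plus strand): ATTGGaCCACG
SDF2L1 (ERSE-II, chr22:21642114-21642124, minus strand): ATTGGtCCACG
HERPUD1 (ERSE-II, chr16:56932025-56932035, plus strand): ATTGGgCCACG
HYOU1 held a second ERSE-II with the same letters at chr11:119057380-119057390, and this copy overlapped a match to TGACGTGG, the core of the XBP1 response element, on the opposite strand. That core was found in 2 of 34 members (5.88%), HYOU1 and DNAJC10, against 256 promoters in all (0.729%). A match describes letters only and is not evidence that a factor binds there.

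By level, the set ran from some of the best expressed ER genes to sensors at a few reads per kilobase. Per exon length (RPKM, the CPM divided by the length of the gene's exons in kilobases, averaged over all libraries), CALR, the lectin chaperone calreticulin, stood first at 321 RPKM, followed by HSP90B1 (the HSP90 of the ER, GRP94) at 271 RPKM, HSPA5 at 269.9 RPKM and P4HB (protein disulfide isomerase) at 228 RPKM. HSP90B1 and HSPA5 were close to each other and changed order between groups. The sensors ATF6 (9.20 RPKM), EIF2AK3 (4.42 RPKM) and ERN1 (2.85 RPKM), and the oxidase gene ERO1B (1.47 RPKM), stood near the foot. TXNDC5, at 0.949 RPKM the lowest of the tested members, overlaps a readthrough gene on its own strand that was listed with 0 reads, so its level is uncertain. The summed level of the members was 9797 and 9299 CPM in siTotal1, 9452 and 9302 CPM in siTotal2, 8572 and 8444 CPM in siLong1, 8541 and 8634 CPM in the libraries labelled siLong2, 8806 and 8871 CPM in siControl, and 9611 and 9923 CPM in mock. The 4 siLong libraries were the lowest of the 12, below both siControl libraries, and the siControl libraries were below every siTotal and mock library. Without CANX, the sums were 8182 to 8605 CPM in siTotal, 7466 to 7618 CPM in siLong, 8310.4 and 8357 CPM in siControl, and 8586 and 8828 CPM in mock, so siControl then lay within the range of siTotal. In bulk RNA, fewer cells with a high level and a lower level in every cell cannot be told apart.

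**Figure D1:**
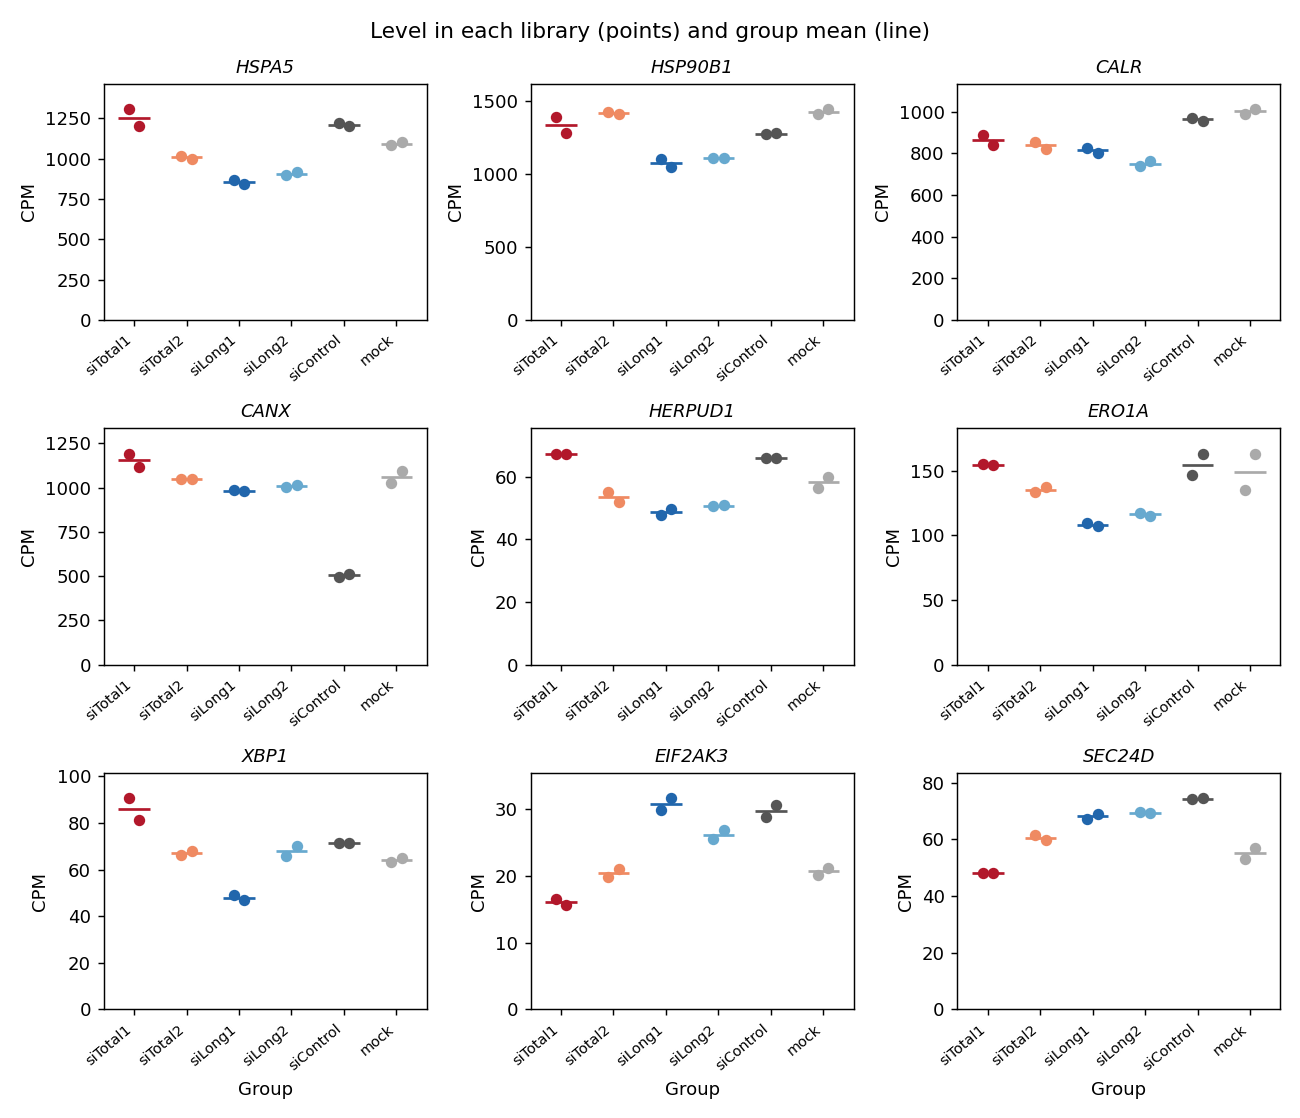
TMM-scaled CPM of the members shown, 1 panel per gene, with an axis that starts at 0. Points are libraries (2 per group) and lines group means, ordered siTotal1, siTotal2, siLong1, siLong2, siControl, mock. HSPA5 lies at 846 to 917 CPM in the 4 siLong libraries and at 1001 CPM or more in all others, while CANX stands apart in siControl at 495 and 513 CPM.

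siTotal against siControl asks what differs when all NFYA transcripts are targeted. Of the 37 tested members, 6 were called higher (16.2%, against 22.0% of all tested genes) and 14 lower (37.8%, against 22.2%), where a call is an adjusted p under 0.05 in edgeR's quasi-likelihood test with Benjamini-Hochberg adjustment over all tested genes. The median log2 difference was -0.04 for the members and 0.00 for all tested genes. By function, the fall included 5 of 8 chaperones, with 2 rising, and 4 of 8 tested degradation genes, with none rising. Of 9 disulfide enzymes, 3 rose and none fell. The largest changes were a rise of CANX by 1.13 and falls of EIF2AK3 by 0.72, SEC24D by 0.46 and SYVN1 by 0.34 (log2), with the next largest a fall of ERN1 by 0.25. The calls for DNAJB9, HSPA5, HYOU1, HSP90B1, P4HB, EDEM2 and UGGT1 ended when 1 library was left out.

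siLong against siControl asks the same for the transcripts with the long untranslated region. Here 6 members were called higher (16.2%, against 25.1% of all tested genes) and 20 lower (54.1%, against 28.4%), with a median of -0.15 for the members and -0.01 for all tested genes. The fallers included 6 of the 8 chaperones of the lectin and BiP cycles, 4 of 9 disulfide enzymes and 4 of 8 degradation genes. The genes that rose were CANX, PDIA3, PDIA6, DERL2, SEC61A1 and SEC61B. The calls for SEC24D, DNAJB9, SEC61B, PDIA3, EDEM2, SDF2L1 and ERN1 ended without 1 library.

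Set directly against each other, siTotal and siLong differed at 26 members. In siTotal 18 were higher (48.6%, against 28.1% of all tested genes) and 8 lower (21.6%, against 25.3%), with a median of 0.07 for the members and 0.01 for all tested genes. Chaperones made up 6 of the higher genes, and all 3 translocation and export genes were lower. The calls for ATF6, SEC61B, CRELD2 and DNAJC3 ended without 1 library.

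The controls themselves differed. In siControl against mock, 12 members were called higher (32.4%, against 20.3%) and 8 lower (21.6%, against 19.5%), with a median of 0.04 for the members and -0.01 for all tested genes. Of the 5 genes of the sensor group, 4 were higher in siControl and none lower, and 5 of 9 disulfide enzymes were lower and 1 higher. The calls for ATF6, XBP1, HERPUD1, PDIA3 and UGGT1 ended without 1 library, and DESeq2 did not call ATF6 (adjusted p = 0.0849). Values against siControl therefore have to be read beside those against mock.

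In siTotal against mock, 9 members were called higher (24.3%, against 16.6%) and 9 lower (24.3%, against 14.2%). In siLong against mock, 8 members were called higher (21.6%, against 24.4%) and 18 lower (48.6%, against 26.4%), with a median of -0.10 for the members and -0.01 for all tested genes. All 8 chaperones were called lower in siLong against mock, but DESeq2 called neither UGGT1 (adjusted p = 0.0549) nor CANX (adjusted p = 0.0729). By sequence, 6 of the 8 were lower and 1, HYOU1, higher in siLong1 against mock, and 6 were lower and 0 higher in siLong2. In siTotal against mock 10 of the 18 calls ended when 1 library was left out (ATF6, DERL2, DNAJB9, DNAJB11, EDEM2, EIF2AK3, ERN1, HYOU1, PDIA6 and SELENOS), and in siLong against mock 6 of the 26 did (CANX, CRELD2, DNAJB9, DNAJB11, EDEM2 and UGGT1). siTotal and siLong each share the siControl libraries in one comparison and the mock libraries in another, so their values are given side by side and not counted as separate evidence.

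Counted by library and not by test, the siTotal libraries lay above all 4 control libraries (siControl and mock) at 1 member (2.70%, against 6.35% of all tested genes), DNAJB11. They lay below all 4 at 3 members, CALR, MANF and EDEM2 (8.11%, against 5.52%). The siLong libraries lay above at 2 members, DERL2 and SEC61A1 (5.41%, against 11.7%). They lay below all 4 control libraries at 11 members, HSPA5, HSP90B1, CALR, DNAJB11, MANF, HERPUD1, EDEM2, ERO1A, ERO1B, SELENOS and WFS1 (29.7%, against 12.6%). For DNAJB11 the margin was very small, with 106.56 CPM in the second siLong1 library and 106.86 CPM in the first siControl library.

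These p-values measure the spread between 2 libraries of a group, not between siRNA sequences. A further fit took each siRNA sequence, with its libraries summed, as 1 replicate. Its control was siControl and mock, each summed as 1 replicate. edgeR then called 0 members for siTotal and 0 for siLong. For siTotal it also called 0 genes in all, with 589 of 18527 genes and 0 members at an unadjusted p under 0.05. For siLong it called 0 genes in all, with 1736 of 18620 genes and 5 members at an unadjusted p under 0.05. This fit changed the control as well as the replicate, so its counts are not like those against siControl alone. DESeq2, run on the libraries as in the edgeR test, called members in all comparisons.

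**Figure D2:**
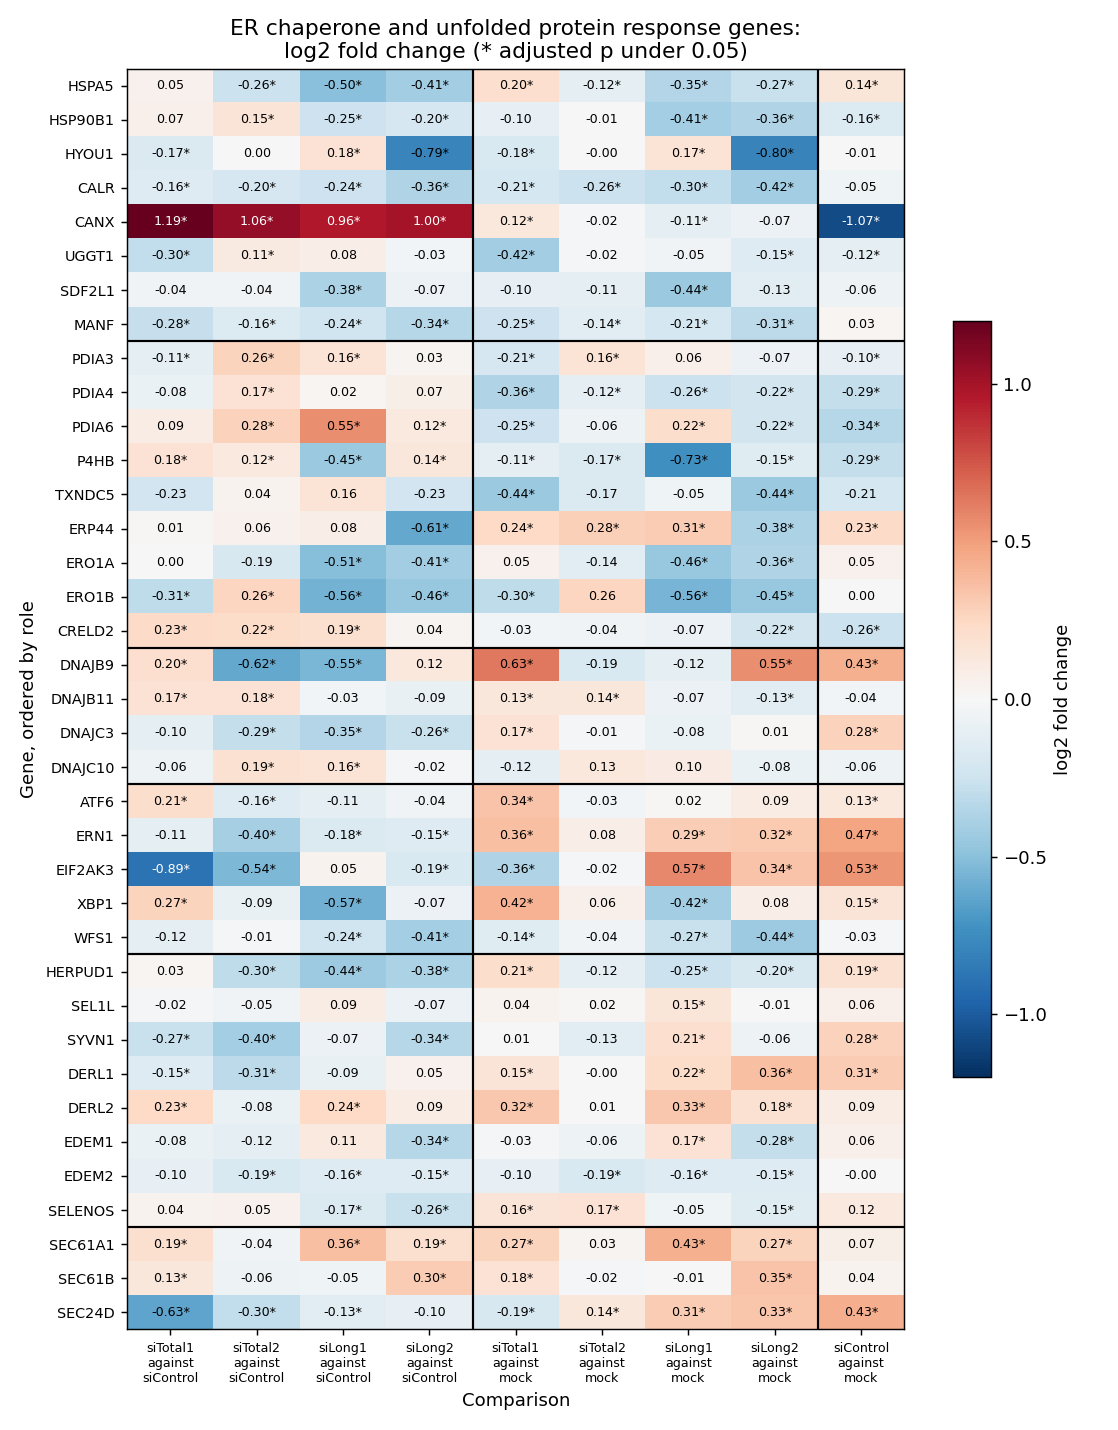
Log2 differences of the 37 tested members (down the page, grouped by function) for each siRNA against siControl and against mock, and for siControl against mock; colour and number give the difference and an asterisk an adjusted p under 0.05. CANX stands out at 0.96 to 1.19 in every column against siControl, lies at -0.11 to 0.12 for the same siRNAs against mock, and is at -1.07 in siControl against mock.

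Among the chaperones, HSPA5 encodes BiP, the HSP70 of the ER and the repressor of all 3 sensors. It measured 1308 and 1200 CPM in siTotal1, 1018 and 1001 CPM in siTotal2, 865 and 846 CPM in siLong1, 898 and 917 CPM in the libraries labelled siLong2, 1218 and 1199.8 CPM in siControl, and 1084 and 1103 CPM in mock. Every siLong library was below every other library, and siTotal1 and siTotal2 lay on either side of mock. HSPA5 fell in siLong against siControl by 0.46 on the log2 scale (SE 0.036, adjusted p = 1.95e-13) and in siLong against mock by 0.31 (adjusted p = 3.25e-09). In siTotal it fell by 0.10 against siControl (SE 0.036, adjusted p = 0.0182), and this call ended without either siControl library (adjusted p = 0.131 and 0.0566). siTotal exceeded siLong by 0.35 (SE 0.030, adjusted p = 1.36e-12). The fall against siControl was 0.50 in siLong1 alone and 0.41 in siLong2 alone, a pair that did not differ beyond the test's threshold (adjusted p = 0.088).

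HSP90B1 encodes GRP94, which folds receptors and integrins. It had 1389 and 1282 CPM in siTotal1, 1428 and 1412 CPM in siTotal2, 1099.9 and 1049 CPM in siLong1, 1110.4 and 1110.3 CPM in the libraries labelled siLong2, 1271 and 1281 CPM in siControl, and 1411 and 1446 CPM in mock. The siLong libraries were again the lowest 4, and the siTotal libraries overlapped mock. The siTotal libraries also lay above both siControl libraries, but by almost nothing in 1 case. The second siTotal1 library had 1281.5 CPM and the second siControl library 1281.2 CPM. In siTotal HSP90B1 rose by 0.11 against siControl (adjusted p = 0.0144), a call that ended without either siControl library (adjusted p = 0.178 and 0.135) or without the first siTotal1 library (adjusted p = 0.0762), and it differed by -0.05 from mock (adjusted p = 0.304). It fell in siLong by 0.22 against siControl and by 0.39 against mock (adjusted p = 2.34e-06 and 2.44e-11). siTotal exceeded siLong by 0.33 (adjusted p = 6.84e-12).

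CALR encodes calreticulin, the soluble lectin that holds newly made glycoproteins. It had 887 and 840.2 CPM in siTotal1, 856 and 820.2 CPM in siTotal2, 825 and 802 CPM in siLong1, 737 and 762 CPM in the libraries labelled siLong2, 972 and 955 CPM in siControl, and 989 and 1013 CPM in mock. All 8 libraries with an NFYA siRNA lay below all 4 control libraries. CALR fell in siTotal by 0.18 and in siLong by 0.30 against siControl (adjusted p = 6.53e-05 and 3.03e-09), and by 0.23 and 0.36 against mock. It was one of 2 chaperones, with MANF, that were called lower under each of the 4 siRNAs against both controls.

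MANF encodes a secreted factor that is retained in the ER and binds BiP. It measured 77.4 and 73.8 CPM in siTotal1, 83.9 and 79.95 CPM in siTotal2, 79.2 and 76.7 CPM in siLong1, 72.1 and 72.8 CPM in the libraries labelled siLong2, 93.6 and 89.99 CPM in siControl, and 90.3 and 89.8 CPM in mock. As with CALR, no library with an NFYA siRNA reached the lowest control library. MANF fell in siTotal by 0.22 and in siLong by 0.29 against siControl (adjusted p = 1.15e-05 and 7.06e-08).

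CANX encodes calnexin, the membrane-bound partner of calreticulin. It had 1192 and 1117 CPM in siTotal1, 1047 and 1049.8 CPM in siTotal2, 988 and 979 CPM in siLong1, 1004 and 1016 CPM in the libraries labelled siLong2, 495 and 513 CPM in siControl, and 1026 and 1095 CPM in mock. The siControl libraries were far below the other 10, which lay within 979 to 1192 CPM. CANX was therefore higher in siTotal than in siControl by 1.13 (SE 0.039, adjusted p = 3.15e-23) and in siLong than in siControl by 0.98 (SE 0.038, adjusted p = 5.34e-22). siControl was below mock by -1.07 (log2; SE 0.043, adjusted p = 3.69e-21). Against mock the difference was 0.05 in siTotal (adjusted p = 0.291) and -0.09 in siLong (adjusted p = 0.0396), the second lost without the second mock library (adjusted p = 0.5) and with DESeq2 (adjusted p = 0.0729). The largest differences of any member against siControl were thus seen where siControl alone stood apart from all other groups.

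The remaining chaperones moved less evenly. HYOU1, which encodes the nucleotide exchange factor GRP170 for BiP, had 313 and 305 CPM in siTotal1, 350.2 and 348 CPM in siTotal2, 393 and 394 CPM in siLong1, 198 and 205 CPM in the libraries labelled siLong2, 354 and 343 CPM in siControl, and 353 and 348 CPM in mock. siLong1 was the highest group and siLong2 the lowest, and the mean fall of 0.31 in siLong against siControl matches neither sequence. SDF2L1, a component of BiP complexes, fell in siLong1 by 0.38 against siControl and differed by -0.07 in siLong2 (not called). UGGT1, the sensor that returns misfolded glycoproteins to the lectins, fell in the mean of siTotal by 0.22 against mock and by 0.10 against siControl. The low values were those of siTotal1, at 139 and 132 CPM, while siTotal2 had 176 and 182 CPM. UGGT1 had 164 and 169 CPM in siControl, and 178 and 184 CPM in mock.

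Of the disulfide enzymes, the oxidases ERO1A and ERO1B pass electrons from protein disulfide isomerases to oxygen. ERO1A had 155.4 and 153.9 CPM in siTotal1, 133 and 137 CPM in siTotal2, 109.9 and 107 CPM in siLong1, 117 and 115 CPM in the libraries labelled siLong2, 146 and 163 CPM in siControl, and 135 and 163 CPM in mock. ERO1B, at a far lower count, had 6.89 and 7.28 CPM in siTotal1, 10.9 and 10.03 CPM in siTotal2, 6.04 and 5.83 CPM in siLong1, 6.99 and 5.78 CPM in the libraries labelled siLong2, 8.02 and 9.54 CPM in siControl, and 8.98 and 8.498 CPM in mock. Both genes were lower in every siLong library than in every control library, and for ERO1A also lower than in every siTotal library. ERO1A fell in siLong by 0.46 against siControl (SE 0.066, adjusted p = 1.32e-04) and by 0.41 against mock (adjusted p = 3.67e-04). ERO1B fell by 0.51 in both comparisons (SE 0.095 and 0.092, adjusted p = 1.95e-05 and 1.54e-05). In siTotal neither gene differed from siControl or mock beyond the threshold, with ERO1A at -0.10 (adjusted p = 0.281) and ERO1B at -0.03 (adjusted p = 0.846) against siControl. For ERO1B this mean covers opposite values, -0.31 in siTotal1 and 0.26 in siTotal2 against siControl.

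The isomerases went in several directions. P4HB had 1326 and 1290 CPM in siTotal1, 1274 and 1236 CPM in siTotal2, 848 and 849 CPM in siLong1, 1273 and 1276 CPM in the libraries labelled siLong2, 1147 and 1167 CPM in siControl, and 1399 and 1422 CPM in mock. siLong1 stood below all other libraries, at -0.45 against siControl and -0.73 against mock, while siLong2 was above siControl by 0.14. PDIA6, another isomerase, which also binds IRE1, rose in siTotal by 0.18 and in siLong by 0.34 against siControl. Against mock it fell in siTotal by 0.16, not called without the second mock library (adjusted p = 0.0633), and differed by -0.00 in siLong (adjusted p = 0.977). The siLong mean of PDIA6 covers unlike sequences, with siLong1 at 341 and 332 CPM and the libraries labelled siLong2 at 246 and 252 CPM. These lay on either side of mock (282 and 298 CPM), and siControl was at 224 and 234 CPM. PDIA4 differed from siControl by 0.05 in both siTotal and siLong, neither called, and fell by 0.24 in both against mock. ERP44, which retains oxidases in the ER, fell by 0.61 in siLong2 against siControl and differed by 0.08 in siLong1 (not called). CRELD2, a disulfide enzyme induced by ER stress, rose in siTotal by 0.22 against siControl and differed by -0.04 from mock.

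DnaJ proteins drive the ATP cycle of BiP. DNAJB11, which escorts unfolded proteins to BiP, was higher in all 4 siTotal libraries (114 to 129 CPM) than in siControl (107 and 109 CPM) and mock (108 and 113 CPM). It rose in siTotal by 0.17 against siControl and by 0.14 against mock (adjusted p = 6.69e-04 and 0.00861), though the call against mock ended without the first mock library (adjusted p = 0.163). DNAJB9, which holds IRE1 in its inactive form, had 21.0 and 19.8 CPM in siTotal1, 11.3 and 11.8 CPM in siTotal2, 12.5 and 11.8 CPM in siLong1, 19.4 and 19.2 CPM in the libraries labelled siLong2, 18.1 and 17.4 CPM in siControl, and 12.3 and 14.1 CPM in mock. Here siTotal1 and siLong2 sat above both controls, siTotal2 sat below both, and siLong1 overlapped mock. DNAJC3, which also restrains PERK, fell against siControl by 0.20 in siTotal and 0.31 in siLong. It had 86.0 and 94.9 CPM in siControl and 72.1 and 77.3 CPM in mock. Against mock, DESeq2 gave differences of 0.08 in siTotal (adjusted p = 0.245) and -0.02 in siLong (adjusted p = 0.765). DNAJC10, a reductase with a DnaJ domain, was not called in siTotal or siLong against either control.

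The sensors had low levels, and 4 of the 5 genes in their group (ATF6, ERN1, EIF2AK3 and XBP1) were called higher in siControl than in mock. Without the first mock library ATF6 and XBP1 were not called (adjusted p = 0.421 and 0.102). EIF2AK3 encodes PERK, the kinase that slows translation by phosphorylating eIF2. It had 16.5 and 15.7 CPM in siTotal1, 19.8 and 21.1 CPM in siTotal2, 29.9 and 31.7 CPM in siLong1, 25.5 and 26.95 CPM in the libraries labelled siLong2, 28.9 and 30.7 CPM in siControl, and 20.2 and 21.2 CPM in mock. siTotal1 was below every other library, siTotal2 overlapped mock, and siLong overlapped siControl. EIF2AK3 fell in siTotal by 0.72 against siControl (SE 0.057, adjusted p = 4.65e-13) and was below siLong by -0.65 (SE 0.048, adjusted p = 4.04e-14). Against mock it fell in siTotal by 0.19 (adjusted p = 0.012), with siTotal1 at -0.36 and siTotal2 at -0.02, and this call ended without the second mock library (adjusted p = 0.133). In siLong it rose against mock by 0.46 (adjusted p = 1.36e-08) and differed from siControl by -0.07 (adjusted p = 0.3).

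ERN1 encodes IRE1, the kinase and nuclease that splices XBP1. It measured 33.2 and 33.1 CPM in siTotal1, 26.48 and 28.004 CPM in siTotal2, 31.8 and 31.7 CPM in siLong1, 32.6 and 31.8 CPM in the libraries labelled siLong2, 35.5 and 36.2 CPM in siControl, and 26.9 and 24.8 CPM in mock. The siControl pair was the highest, and siTotal2 overlapped mock. ERN1 fell against siControl by 0.25 in siTotal and 0.16 in siLong, and rose against mock by 0.22 and 0.31 (adjusted p = 8.22e-05, 0.00589, 0.00122 and 5.2e-06). The rise in siTotal against mock was not called without the second mock library (adjusted p = 0.0631), nor the fall in siLong against siControl without the second siControl library (adjusted p = 0.0675).

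ATF6 encodes the sensor that is cut in the Golgi to release a transcription factor. It had 89.2 and 82.7 CPM in siTotal1, 66.5 and 66.6 CPM in siTotal2, 70.8 and 66.7 CPM in siLong1, 71.3 and 73.2 CPM in the libraries labelled siLong2, 75.3 and 73.0 CPM in siControl, and 65.2 and 70.8 CPM in mock. siTotal1 alone stood clear of the rest. ATF6 was not called in siTotal (0.03) or siLong (-0.07) against siControl, and siTotal1 and siTotal2 differed from each other by 0.37 (adjusted p = 1.23e-07).

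XBP1 encodes the transcription factor that IRE1 activates by splicing. Gene counts sum its spliced and unspliced forms. It had 90.5 and 81.4 CPM in siTotal1, 66.1 and 67.9 CPM in siTotal2, 49.1 and 46.8 CPM in siLong1, 66.0 and 69.9 CPM in the libraries labelled siLong2, 71.4 and 71.4 CPM in siControl, and 63.3 and 65.2 CPM in mock. siTotal1 was the highest group and siLong1 the lowest, and the others lay within 63.3 to 71.4 CPM. XBP1 fell in siLong by 0.33 against siControl (adjusted p = 7.92e-08) and by 0.17 against mock (adjusted p = 0.00131). Of the pair of siLong sequences only siLong1 was called, at -0.57 against siControl and -0.42 against mock, with siLong2 at -0.07 and 0.08. WFS1, the wolframin gene, whose product restrains ATF6, had 34.6 to 40.4 CPM in the siLong libraries, against 44.9 and 47.4 CPM in siControl and 46.1 and 47.9 CPM in mock. It fell in siLong by 0.33 against siControl and 0.35 against mock (adjusted p = 3.35e-07 and 5.7e-08), with each siLong siRNA called.

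ER-associated degradation returns misfolded proteins to the cytosol through a complex built on the ligase of SYVN1 (HRD1) and its partner SEL1L. HERPUD1, which organises that complex and is a classic target of the response, had 67.4 and 67.4 CPM in siTotal1, 55.1 and 52.1 CPM in siTotal2, 47.7 and 49.9 CPM in siLong1, 50.6 and 51.0 CPM in the libraries labelled siLong2, 66.1 and 66.1 CPM in siControl, and 56.5 and 59.9 CPM in mock. The siLong libraries were the lowest 4. HERPUD1 fell in siLong by 0.41 against siControl and by 0.22 against mock (adjusted p = 1.96e-10 and 2.77e-05), and siTotal exceeded siLong by 0.27 (adjusted p = 3.68e-08).

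SYVN1 had 55.1 and 60.7 CPM in siTotal1, 50.8 and 54.4 CPM in siTotal2, 64.4 and 68.4 CPM in siLong1, 57.1 and 53.0 CPM in the libraries labelled siLong2, 69.6 and 69.7 CPM in siControl, and 58.4 and 56.7 CPM in mock. siControl was the highest group. SYVN1 fell against siControl by 0.34 in siTotal and 0.20 in siLong (adjusted p = 1.13e-07 and 2.25e-04). Against mock the differences were -0.06 and 0.07, neither called. SEL1L was not called in siTotal or siLong against either control, with values of -0.03 to 0.07.

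The derlins form part of the channel for degraded proteins. DERL1 fell in siTotal by 0.23 against siControl (adjusted p = 1.1e-06) and differed from mock by 0.07 (adjusted p = 0.119). In siLong it differed from siControl by -0.02 (adjusted p = 0.681) and rose by 0.29 against mock (adjusted p = 1.74e-08), while siControl was above mock by 0.31 (adjusted p = 1.28e-07). DERL2 rose in siLong by 0.17 against siControl and 0.25 against mock. EDEM2, which starts the trimming of mannose that marks glycoproteins for degradation, was at 23.2 to 26.4 CPM in the siTotal libraries and 24.5 to 25.4 CPM in the siLong libraries, against 27.8 and 27.9 CPM in siControl and 27.7 and 27.97 CPM in mock. Its differences of -0.14 and -0.15 against siControl were not called by DESeq2 (adjusted p = 0.0795 and 0.072). SELENOS, a selenoprotein of the degradation complex, fell in siLong by 0.22 against siControl, and its difference of -0.10 from mock was not called. EDEM1, which passes glycoproteins on to degradation, was not called in siTotal or siLong against either control and fell in siLong2 alone by 0.34 against siControl.

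Of the genes of protein entry and exit, SEC61A1, which encodes the pore of the translocon, had 504.8 and 486 CPM in siTotal1, 421 and 419 CPM in siTotal2, 555 and 554 CPM in siLong1, 494 and 496 CPM in the libraries labelled siLong2, 431 and 435 CPM in siControl, and 405 and 419.03 CPM in mock. All siLong libraries were above all control libraries. SEC61A1 rose in siLong by 0.28 against siControl and 0.35 against mock (adjusted p = 9.6e-09 and 5.75e-11). SEC61B, a small subunit of the same channel, rose by 0.13 and 0.17 in the mean of the siLong sequences. Of these sequences siLong2 alone was called, at 0.30 against siControl and 0.35 against mock, with siLong1 at -0.05 and -0.01.

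SEC24D, a cargo adaptor of the COPII coat that buds from the ER, had 48.1 and 48.2 CPM in siTotal1, 61.4 and 59.8 CPM in siTotal2, 67.3 and 69.0 CPM in siLong1, 69.6 and 69.4 CPM in the libraries labelled siLong2, 74.3 and 74.5 CPM in siControl, and 53.2 and 57.1 CPM in mock. The mock libraries lay between siTotal1 and siTotal2. SEC24D fell against siControl by 0.46 in siTotal (SE 0.041, adjusted p = 7.95e-12) and was below siLong by -0.35 (SE 0.034, adjusted p = 5.1e-11). Against mock it differed by -0.03 in siTotal (adjusted p = 0.65) and rose by 0.32 in siLong (adjusted p = 3.27e-08). The fall of 0.11 in siLong against siControl was not called by DESeq2 (adjusted p = 0.0667).

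**Figure D3:**
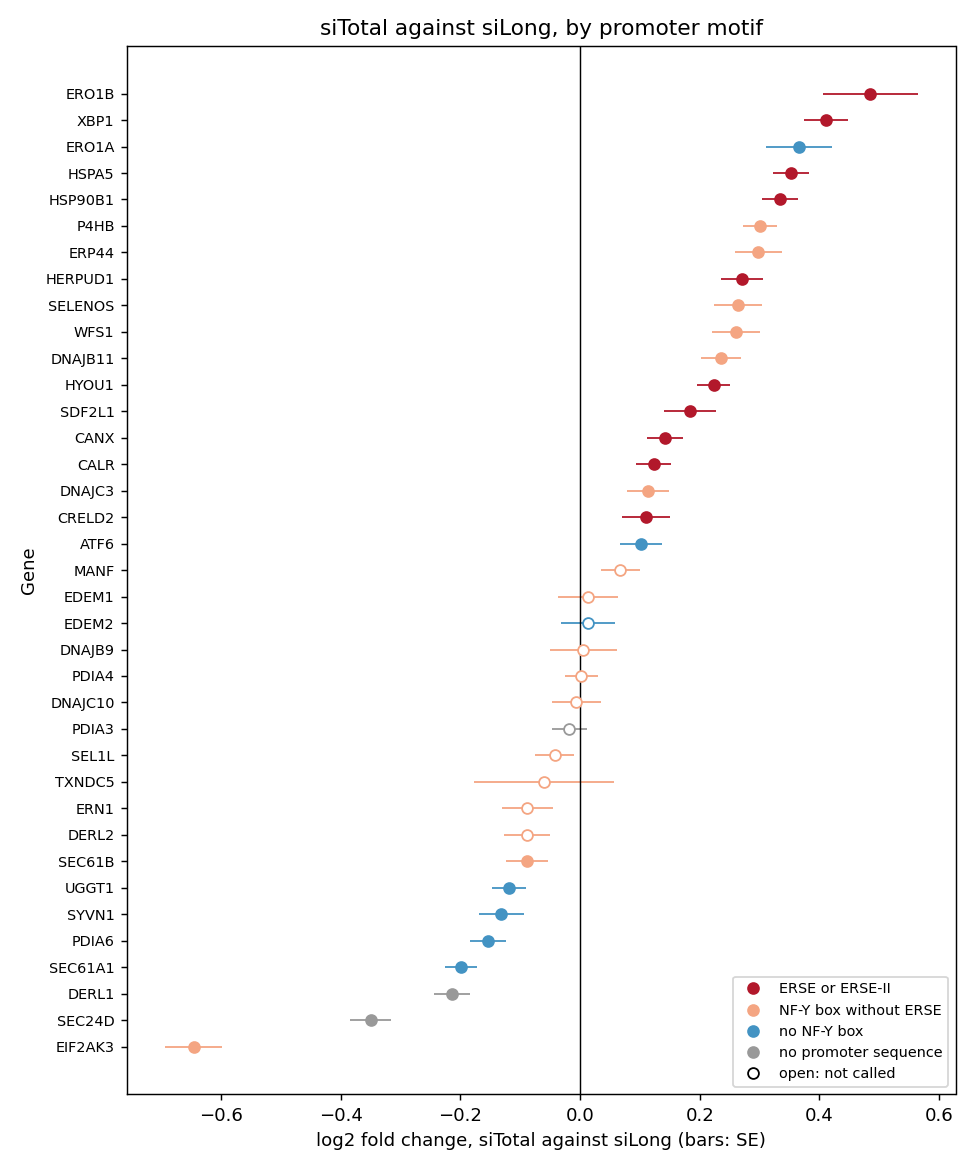
Log2 difference of siTotal from siLong (horizontal axis) with its SE (bars) for the 37 tested members (down the page, in order of the difference), coloured by the motif in the promoter window; open points were not called. All 10 members with an ERSE or ERSE-II lie to the right of 0, with ERO1B at the top (0.49), and EIF2AK3 lies farthest to the left (-0.65).

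The members were also grouped by the elements printed above. In siTotal against siLong all 10 members with an ERSE or ERSE-II were called higher in siTotal (against 28.1% of all tested genes), with a median of 0.25 and a range from 0.11 in CRELD2 to 0.49 in ERO1B. CRELD2 was not called there by DESeq2 (adjusted p = 0.0932) or when any one of 4 libraries was left out. At HSPA5, HSP90B1, CANX, CRELD2 and HERPUD1 every siTotal library was above every siLong library. At CALR, SDF2L1, XBP1 and ERO1B the siTotal and siLong libraries overlapped. For XBP1, siLong2 had 66.0 and 69.9 CPM and siTotal2 66.1 and 67.9 CPM. HYOU1 in siLong1 (393 and 394 CPM) was above every siTotal library (305 to 350.2 CPM), so its mean difference does not hold for each sequence. In siLong against mock all 10 were called lower (against 26.4%), from -0.51 in ERO1B to -0.09 in CANX, with a median of -0.30, and CANX was not called by DESeq2, with RLE scaling, or without the second mock library or any one of the siLong libraries, and CRELD2 was not called without the first mock library. In siLong against siControl 8 were lower (against 28.4% of all tested genes) and 1, CANX, was higher (against 25.1%), with a median of -0.30.

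In siTotal the same 10 genes were not uniform. Against siControl, 3 were higher and 4 lower, with a median of -0.03, and against mock 1 was higher and 2 lower, with a median of -0.03. Of all tested genes, 22.0% were higher and 22.2% lower in siTotal against siControl, and 16.6% and 14.2% against mock. The single siRNAs also differed: against mock, 8 of the 10 were lower and 1 higher in siLong1, 7 lower and 0 higher in the libraries labelled siLong2, 3 lower and 4 higher in siTotal1, and 2 lower and 0 higher in siTotal2. Of all tested genes, 26.1% were lower and 26% higher in siLong1, and 25% and 25.2% in siLong2. In siTotal1 18.7% were lower and 22.1% higher, and in siTotal2 12.6% and 14.1%.

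Of the 17 members with a CCAAT box but no ERSE or ERSE-II, 2 were higher and 8 lower in siLong against siControl (median -0.11), 5 were higher and 5 lower in siLong against mock (median -0.04), and 6 were higher and 2 lower in siTotal against siLong (median 0.01). Of the 7 members with a window but no CCAAT box, 2 were higher and 3 lower in siLong against siControl, 1 was higher and 3 lower in siLong against mock, and 2 were higher and 4 lower in siTotal against siLong. Over all tested genes, 25.1% were higher and 28.4% lower in siLong against siControl. They were 24.4% and 26.4% in siLong against mock, and 28.1% and 25.3% in siTotal against siLong. The same shares were taken over the tested genes for which a promoter window was found by symbol, which leaves out the other tested genes. In siLong against mock, 33.3% of 4198 genes with the box were lower, against 29.6% of 7300 genes without it. In siTotal against mock the lower shares were 18.3% with the box and 15.2% without. Against siControl they were 34.5% with the box and 32.1% without in siLong, and 26.9% and 25.3% in siTotal. The difference between the motif groups of members was not tested.

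**Figure D4:**
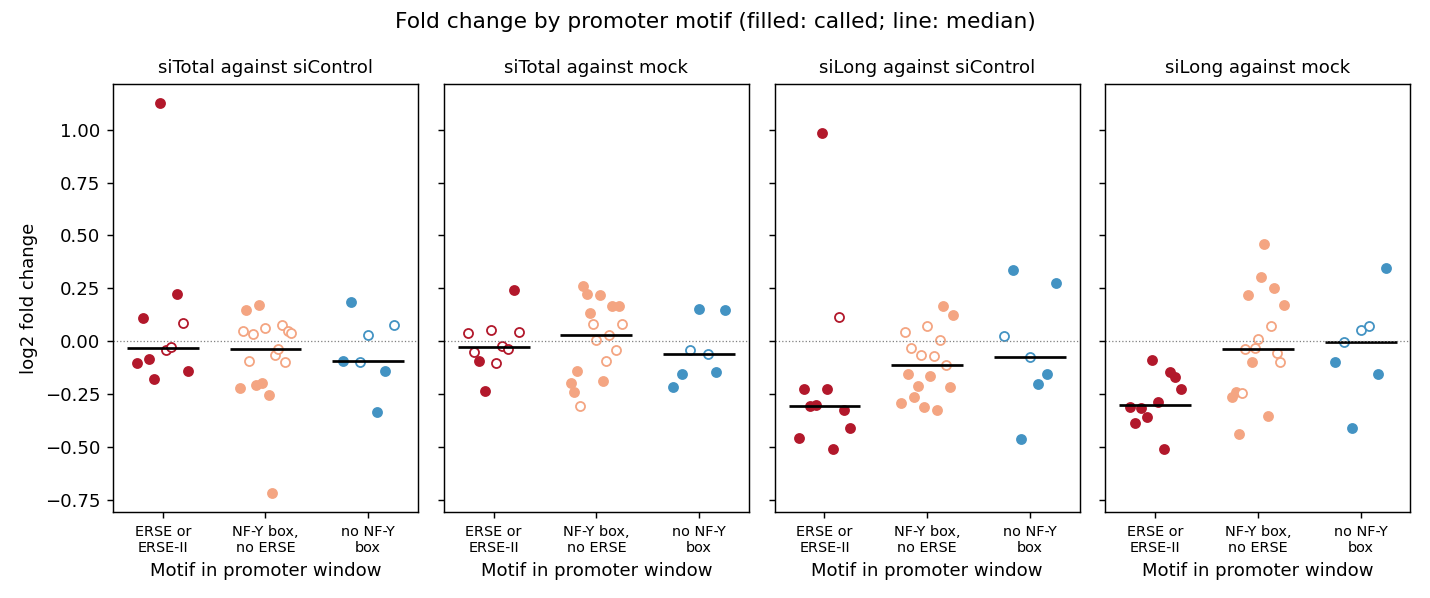
Log2 differences of the members by the motif in the promoter window (ERSE or ERSE-II, an NF-Y box without either, or no NF-Y box) in siTotal and siLong against siControl and against mock. Points are genes, filled where called, and lines are medians; in siLong against mock all 10 members with an ERSE or ERSE-II lie below 0, and CANX is the single point near 1 in each panel against siControl.

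The siRNA sequences of 1 target were also set against each other. siTotal1 and siTotal2 differed at 23 members (62.2%, against 43.9% of all tested genes), and siLong1 and siLong2 at 22 (59.5%, against 53.7%), a share near that of all genes. Calls in opposite directions against siControl were found at 5 of the 23 and 2 of the 22 members. Against siControl, 20 members were called in siTotal1 (54.1%, against 43.4%), 24 in siTotal2 (64.9%, against 45.1%), 25 in siLong1 (67.6%, against 54.5%) and 22 in siLong2 (59.5%, against 52.7%). Against mock, 28 were called in siTotal1 (75.7%, against 40.9%), 11 in siTotal2 (29.7%, against 26.7%), 26 in siLong1 (70.3%, against 52.0%) and 28 in siLong2 (75.7%, against 50.3%). siTotal2 had the fewest called members against mock, a share near that of all genes.

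Other genes of the pathways around the set were counted from lists drawn up by function. Over all tested genes, 22.0% rose and 22.2% fell in siTotal against siControl, 25.1% and 28.4% in siLong against siControl, 16.6% and 14.2% in siTotal against mock, and 24.4% and 26.4% in siLong against mock, and siControl was higher at 20.3% and lower at 19.5% than mock. Of 14 tested genes of the PERK arm and the integrated stress response, 1 rose and 10 fell in siTotal against siControl, and 2 rose and 9 fell in siLong against siControl. Against mock, 3 rose and 3 fell in siTotal, and 4 rose and 7 fell in siLong, and 9 were higher and 0 lower in siControl than in mock. DDIT3, which encodes the stress factor CHOP, had 8.55 and 9.19 CPM in siTotal1, 10.1 and 9.83 CPM in siTotal2, 10.3 and 9.88 CPM in siLong1, 6.21 and 5.69 CPM in the libraries labelled siLong2, 19.6 and 21.2 CPM in siControl, and 10.7 and 10.1 CPM in mock. The siControl libraries were the highest. CHAC1, a glutathione-degrading enzyme induced through ATF4, was lower in siLong than in mock by -1.03, and its difference in siTotal was -0.16 (adjusted p = 0.228). Other genes of this list went the other way. The differences of ATF3 from mock were 0.63 in siTotal and 0.87 in siLong, and from siControl -1.35 and -1.12. Those of NUPR1 were 0.91 and -0.18 from mock, and 2.72 and 1.63 from siControl.

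Of 16 genes that process or cooperate with ATF6, the CREB3 factors and IRE1, 5 rose and 6 fell in siTotal and 4 rose and 9 fell in siLong against siControl, with 4 and 3 in siTotal and 4 and 9 in siLong against mock. Among these 16, siControl was higher at 4 and lower at 4 than mock. These 16 include NFYA, the gene that the siRNAs target, whose change is not a result about the pathway. They also include NFYB and NFYC, whose rise in siTotal against siControl is given above. CREB3L1, a relative of ATF6, was lower in siLong than in mock by -1.29 and differed by 0.04 from mock in siTotal. Of 23 genes of the translocon, signal peptidase and signal recognition, 9 rose and 5 fell in siTotal and 6 rose and 10 fell in siLong against siControl, with 9 and 3 in siTotal and 7 and 7 in siLong against mock. Among these 23, siControl was higher at 6 and lower at 2 than mock. Of 19 genes of glycan transfer and trimming, 9 rose and 3 fell in siTotal and 6 rose and 6 fell in siLong against siControl, with 5 and 3 in siTotal and 7 and 9 in siLong against mock, and siControl was higher at 2 and lower at 8 than mock. Of 31 tested folding factors outside the set, 14 rose and 7 fell in siTotal and 15 rose and 6 fell in siLong against siControl. Against mock, 9 rose and 5 fell in siTotal and 8 rose and 10 fell in siLong, and siControl was higher at 7 and lower at 15 than mock. One of them, TXNDC12, an ER thioredoxin, had 69.3 CPM or more in every library with an NFYA siRNA, against 44.3 and 45.5 CPM in siControl and 92.3 and 93.8 CPM in mock, so that siControl stood apart as it did for CANX. Of 26 tested degradation factors outside the set, 6 rose and 11 fell in siTotal and 6 rose and 15 fell in siLong against siControl. Against mock, 4 rose and 4 fell in siTotal and 10 rose and 10 fell in siLong, and siControl was higher at 10 and lower at 6 than mock. Of 14 tested genes of COPII export, 2 rose and 5 fell in siTotal and 3 rose and 4 fell in siLong against siControl, with 5 and 1 in siTotal and 5 and 2 in siLong against mock. In this list siControl was higher at 8 and lower at 2 than mock.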

How the data were processed

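Per the labels, polyadenylated RNA was sequenced from stranded libraries. The authors deposited unnormalised read counts for each Ensembl gene, made with STAR 2.4.0f1 and featureCounts on hg19 per the submitters' processing notes. The treatment of strand, the gene annotation and any filter on reads were not given in the sources used here. Of the 38 members, 21 are overlapped by a gene on the opposite strand, from which reads may not be separated (among them CANX, EIF2AK3, ERO1A, ERO1B and SYVN1), and pseudogene copies of HSPA5, HSP90B1 and PDIA3 held 46 to 318 reads.

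Symbols were found for 52526 of 63677 identifiers, and for 38 of 38 members. Exon lengths for RPKM come from GENCODE 29 (GRCh38), and promoters from RefSeq (GRCh38.p14). The 17730 genes that passed filterByExpr (minimum count of 10 and minimum total of 15) were scaled by TMM. edgeR 4.0.16 under R 4.3.3 fitted all 6 groups together, with 6 residual degrees of freedom and a biological coefficient of variation of 3.57%. Contrasts used the quasi-likelihood F-test with Benjamini-Hochberg adjustment, called under 0.05. The fit was tested on simulated counts. CPM values are TMM-scaled. Alternatives were RLE scaling, no filter, DESeq2 1.42.0, a replicate block, only the groups compared, pooled controls, siRNA sequences as replicates and each library left out. Both libraries of every group were kept, since their counts differed by more than sampling noise (chi-square of 1.84 to 7.47 per degree of freedom).

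The members and lists were chosen with earlier results of these data known. Values in all libraries are given for HSPA5, XBP1, ATF6, ERN1, EIF2AK3 and the 4 members with the largest called differences in each of siTotal against siControl, siLong against siControl and siTotal against siLong; other members shown this way were chosen after their values were seen. Genes outside the set were taken from NFYA, NFYB, NFYC and, of each list, up to 4 with the largest called difference.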

Additional observations from a re-analysis of the deposited data

Results flagged for a closer look

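At 7 results the siRNA sequences of 1 target were called in opposite directions against siControl and also differed from each other by edgeR's quasi-likelihood test. Between siTotal1 and siTotal2 these were PDIA3 at -0.37 (log2; siTotal1 -0.11 and siTotal2 0.26 against siControl), DNAJB9 at 0.82 (0.20 and -0.62), ATF6 at 0.37 (0.21 and -0.16), ERO1B at -0.56 (-0.31 and 0.26) and UGGT1 at -0.40 (-0.30 and 0.11). Between siLong1 and the libraries labelled siLong2 they were P4HB at -0.59 (siLong1 -0.45 and siLong2 0.14 against siControl) and HYOU1 at 0.97 (0.18 and -0.79). Each group has 2 libraries, so no library could be tested against its group.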

How the results depend on the processing

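Taking each siRNA sequence as 1 replicate, against siControl and mock as 1 replicate each, gave 0 called members for siTotal and 0 for siLong. Libraries as replicates gave 20 and 26 against siControl alone. These fits differ in the control as well as in the replicate. With 1 library left out at a time, the called members numbered 15 to 24 in siTotal against siControl, 20 to 27 in siLong against siControl, 23 to 26 in siTotal against siLong, 12 to 22 in siTotal against mock, 23 to 26 in siLong against mock and 17 to 19 in siControl against mock. Over these 6 comparisons there were 136 called member results, of which 97 kept their call without any 1 library, 39 lost it in at least 1 case and 0 changed sign. DESeq2 ended 11 of the 136 calls, RLE scaling 5, no filter 2 and only the groups compared 5. With mock and siControl pooled as the control, 32 of the 46 calls against siControl stayed and 10 ended. Among those that ended were HSPA5, HSP90B1, HERPUD1 and CRELD2 in siTotal. These called differences from siControl changed sign: DNAJB9 in siTotal (0.0086) and in siLong (0.0030), SEC24D in siLong (0.1045) and ERN1 in siLong (0.0703). In the fit with siRNA sequences as replicates, the control was also siControl and mock together. There DNAJB9 in siTotal (0.0520) and in siLong (0.0279), P4HB in siTotal (-0.0026), SEC24D in siLong (0.0893) and ERN1 in siLong (0.0491) had the opposite sign to the difference from siControl alone. The parts of the control and of the replicate in this were not told apart. Replicate numbers did not pair the samples (correlations of deviations between groups from -0.085 to 0.099). A replicate block gave 20, 26 and 27 called members in siTotal against siControl, siLong against siControl and siTotal against siLong, and ended 1 of the 136 calls. The cause of these changes was not tested.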
